A study of Mus musculus with 115 samples.

Results

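The fat under testosterone was compared between mice that had developed testes and mice that had developed ovaries, all of which had lost their gonads and carried the same testosterone capsule. The 19 arrays were those of inguinal adipose tissue from testosterone-treated animals, 10 from former testis bearers and 9 from former ovary bearers, of 115 arrays of liver and inguinal fat in the whole series. They were chosen by tissue, genotype and treatment label, without use of any measured value.

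The animals were C57BL/6J mice whose Y chromosome (written Y-) has lost Sry, the gene that starts testis formation, and which may carry Sry instead as a transgene on an autosome. XXSry (5 arrays) and XY-Sry (5 arrays) mice carry the transgene and form testes, whereas XX (4 arrays) and XY- (5 arrays) mice lack it and form ovaries. Every animal was gonadectomised at 75 days of age, received at once a capsule with testosterone (T, 5 mM), and was sampled 3 weeks later. Capsules that were blank (B, 9 former testis and 8 former ovary arrays) or held estradiol (E, 50 µg, 9 and 10 arrays) were given to mice of the same genotypes on the same schedule. The groups with Sry therefore share the transgene as well as a life with testes until surgery, and the labels place gonadal males and females in separate cages, so that transgene, gonad and cage cannot be told apart. The labels do not say whether an array is 1 animal, and p-values measure the spread between arrays. One colour was read per array on Illumina BeadChips, in which a bead signal stands for the abundance of a transcript.

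Inguinal fat of the mouse is the pad in which a mammary gland grows. The gland is a tree of ducts with an inner luminal layer, which makes milk proteins and is marked by the keratins Krt8, Krt18 and Krt19 and the transcription factors Foxa1, Gata3 and Elf5, and an outer basal layer marked by Krt5, Krt14 and Krt17. In male mouse embryos androgen acting through the mesenchyme makes the mammary bud regress, so that adult males hold little or no ductal epithelium, while in females the tree grows under estrogen, progesterone and growth factors. In a bulk sample such as this one, fewer cells of a type and less RNA per cell cannot be told apart.

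To show the regulatory DNA next to genes the results turn on, the 250 bases before the transcript start of 4 genes that were lower in former testes and of 1 that was higher are printed 5′ to 3′ (RefSeq, GRCm38.p6). Capitals mark matches on either strand to 1 motif per gene, which is the AP-2 motif GCCNNNGGC for Gata3, the forkhead motif TGTTTAC for Foxa1, the GATA motif AGATAA for Ltf, the androgen response half-site AGAACA for Ptn, and the metal response core TGCGCNC or TGCACNC for Mt2.
Gata3 (chr2:9878601-9878850, minus strand): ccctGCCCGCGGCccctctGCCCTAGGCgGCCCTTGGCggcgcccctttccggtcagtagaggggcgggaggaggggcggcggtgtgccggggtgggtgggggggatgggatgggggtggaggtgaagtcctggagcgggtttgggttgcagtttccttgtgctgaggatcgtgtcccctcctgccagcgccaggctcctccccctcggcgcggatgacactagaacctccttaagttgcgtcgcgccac
Foxa1 (chr12:57546112-57546361, minus strand): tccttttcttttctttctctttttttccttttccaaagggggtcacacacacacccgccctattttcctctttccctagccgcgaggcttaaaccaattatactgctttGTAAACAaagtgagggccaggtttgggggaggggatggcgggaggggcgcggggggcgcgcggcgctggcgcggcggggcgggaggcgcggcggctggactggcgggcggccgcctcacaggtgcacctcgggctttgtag
Ltf (chr9:111019042-111019291, plus strand): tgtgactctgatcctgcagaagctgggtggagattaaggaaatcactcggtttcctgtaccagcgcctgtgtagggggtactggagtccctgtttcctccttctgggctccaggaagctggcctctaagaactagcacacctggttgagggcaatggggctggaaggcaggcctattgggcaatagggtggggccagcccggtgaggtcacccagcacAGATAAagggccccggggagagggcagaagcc
Ptn (chr6:36810180-36810429, minus strand): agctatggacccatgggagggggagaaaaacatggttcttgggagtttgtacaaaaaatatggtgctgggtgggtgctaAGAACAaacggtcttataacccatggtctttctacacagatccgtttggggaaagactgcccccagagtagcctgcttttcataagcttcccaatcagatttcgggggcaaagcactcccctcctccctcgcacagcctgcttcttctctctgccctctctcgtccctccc
Mt2 (chr8:94172368-94172617, plus strand): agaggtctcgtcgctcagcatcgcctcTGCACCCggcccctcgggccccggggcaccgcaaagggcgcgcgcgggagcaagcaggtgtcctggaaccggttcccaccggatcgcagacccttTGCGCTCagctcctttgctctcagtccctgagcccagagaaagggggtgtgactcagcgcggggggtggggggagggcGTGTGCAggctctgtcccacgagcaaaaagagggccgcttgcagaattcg
Gata3 held 3 AP-2 matches, which begin at positions -246, -231 and -221 relative to its start, and Mt2 held 3 matches to the metal response core. These matches are descriptions of letters and not sites of binding. Among the 24 genes with the largest called differences, 12 in each direction, a window was found for 8 of the lower and 11 of the higher genes. Of the 8 lower genes, the AP-2, GATA, forkhead and androgen motifs were each present in 1, the gene printed with that motif. The metal response core was present in 4 of the 11 higher and 0 of the 8 lower genes. Each gene was thus printed with a motif that it holds. Over all called genes with a window, the AP-2 motif was present in 23.1% of 229 lower and 20% of 85 higher genes, against 19.8% of 8239 tested genes. The metal response core was present in 27.5% and 25.9% against 28.9%, and the androgen half-site in 10.5% and 11.8% against 11.4%. GATA was present in 7.86% of lower and 3.53% of higher genes against 6.15%, and forkhead in 1.75% and 2.35% against 2.21%.

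All 16 adipocyte markers that were tested, among them Adipoq and Lep, were detected on every one of the 19 arrays. The arrays were of uneven purity. The mean of 13 liver transcripts was 13.36 (log2 normalised intensity) on XY-Sry T replicate 1 and between 6.57 and 11.05 on the other 18 arrays, with XX T replicate 4 at 11.05 and XXSry T replicate 5 at 10.05 next. Skeletal muscle transcripts ranged from 7.68 to 13.59 in former testes and from 7.77 to 13.50 in former ovaries. Transcripts of lymphocytes ranged from 5.08 to 9.69 and from 5.47 to 10.40. Where a gene described here gained or lost its gonad-type call under testosterone without XY-Sry T replicate 1, its value without that array is given too. The Y-linked gene Eif2s3y parted the sex chromosome classes, with 4.50 to 5.83 on XX and XXSry arrays and 8.19 to 9.78 on XY- and XY-Sry arrays. The transgene itself could not be checked, because the Sry probe did not pass the filter on dim probes.

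The first comparison asked which transcripts still differ by gonad type once both kinds of mice carry the same testosterone. Most of what changed was lower in former testes. The largest differences included genes of the milk and luminal lists such as Ltf, Foxa1 and Gata3, and also Ido1 and Tmprss2, which lie outside those lists. Of 14636 probes tested, 501 (3.42%) were called in a limma fit at an adjusted p under 0.05, 381 (2.6%) lower and 120 (0.82%) higher, for 326 and 108 gene symbols. At least a 2-fold difference was reached by 230 of the lower and 20 of the higher probes, and at least a 4-fold difference by 78 and 0. At least 8-fold was reached by 25, all of them lower. The median difference over all tested probes was 0.01 on the log2 scale. Differences are on the scale of log2 of the background-corrected intensity plus 16, which understates the change of dim probes.
The split between directions depended on the scaling. With median centring in place of quantile normalisation 311 were lower and 26 higher, so that the lower share went from 76.0% to 92.3%. Without XY-Sry T replicate 1 the counts were 371 and 116 (3.33% of the tested probes in all), and 345 lower and 93 higher calls were shared. With slide as a block they were 447 and 190 (4.35%), and 495 calls were shared. Without XY-Sry T replicate 3 the count of higher probes was 64.

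**Figure D1:**
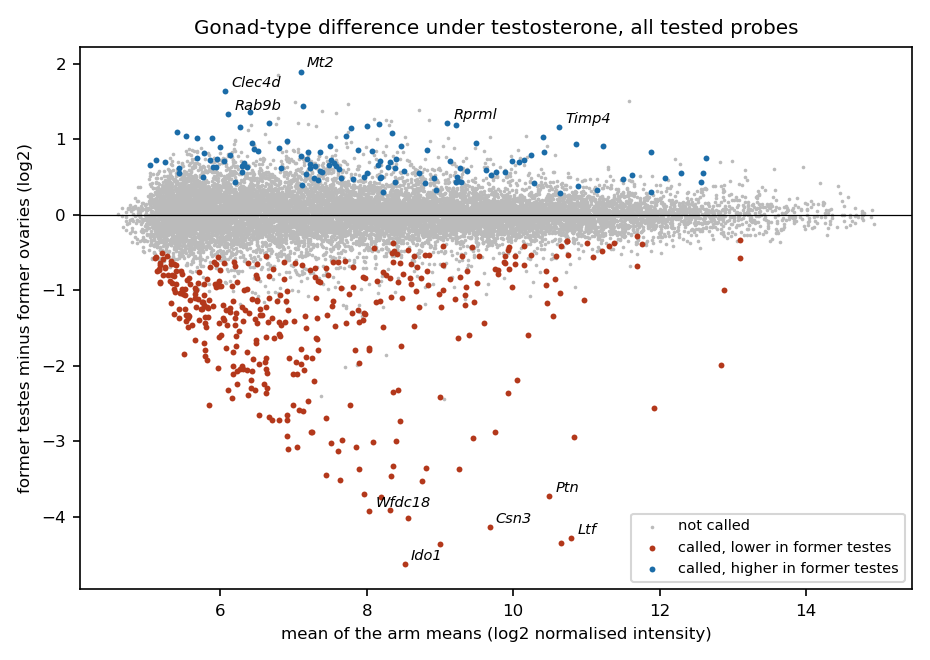
Difference between former testes and former ovaries under testosterone (log2, y axis) against the mean of the 2 arm means (log2 normalised intensity, x axis) for 14636 tested probes, with called probes coloured. The 381 lower calls reach below -4 on the log2 scale, and the 120 higher calls stay under 2.

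The arms did not overlap at all, over 10 and 9 arrays, for 86 called probes (0.588% of those tested), 84 (0.574%) lower and 2 (0.0137%) higher. All 501 called probes had the same sign in the XX pair (XXSry against XX) and in the XY pair (XY-Sry against XY-), and 453 had the same sign on each of the 5 slides. Calls were made on the mean of the 2 pairs over these same arrays. Agreement in sign is therefore favoured by the selection and is not a separate test. Every slide carried both gonad types, although 1 slide had no XX T array.

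Genes of the milk and secretory list were among the strongest differences, and the cells that made these transcripts were not tested. Ltf was above background on 9 and Lcn2 on 10 of 10 former testis arrays. Ltf, the iron-binding milk protein lactoferrin, ranged from 4.79 to 11.10 (median 8.57) in former testes and from 11.82 to 14.07 (median 13.03) in former ovaries. The arms did not overlap, and the lowest value was that of XY-Sry T replicate 1. Ltf was 19.5-fold lower, a log2 difference of -4.29 ± 0.55 (SE, n = 10 and 9; limma adjusted p = 1.48e-07), and -3.91 without that array. Csn3, the kappa-casein of milk, ranged from 4.57 to 11.75 (median 7.04) against 10.91 to 12.81 (median 11.87). Here the arms overlapped, and Csn3 was 17.5-fold lower (-4.13 ± 0.63, adjusted p = 5.66e-06). Btn1a1, the butyrophilin of the milk fat globule membrane, was detected on 3 of 10 former testis arrays and on 9 of 9 former ovary arrays, and was 11.4-fold lower. Wfdc2, a secreted protein with WAP domains, was 20.3-fold lower by its brighter probe and 6.57-fold lower by its dimmer one, both called. Lcn2, which binds siderophores, was 5.11-fold lower (adjusted p = 0.00154). Of 8 tested milk and secretory genes, 5 fell and 0 rose, with a list median of -2.93. Glycam1 (-0.54), Mfge8 (-0.36) and Xdh (0.27) did not pass. Whey acidic protein, the other caseins and alpha-lactalbumin did not pass the filter on dim probes and were not tested.

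Genes of the luminal layer fell with 1 exception among those tested. Foxa1, a pioneer transcription factor of luminal cells, ranged from 4.67 to 8.87 (median 6.40) in former testes and from 9.54 to 11.27 (median 10.79) in former ovaries. The arms did not overlap, and the difference was 16.2-fold (-4.02 ± 0.42, adjusted p = 1.33e-09). Gata3, which maintains luminal fate, ranged from 4.75 to 8.15 (median 6.57) against 8.87 to 11.04 (median 10.08), again without overlap. Gata3 was 13.3-fold lower (-3.73 ± 0.39, adjusted p = 7.87e-10). Krt19, a luminal keratin, was 12.9-fold lower, and Wfdc18, a secreted WAP-domain protein, was 15.2-fold lower, neither with overlap of the arms. Krt19 was above background on 5 and Wfdc18 on 4 of 10 former testis arrays, and both on 9 of 9 former ovary arrays. Elf3, an epithelial transcription factor, was above background on 0 of 10 former testis arrays and on 7 of 9 former ovary arrays, which puts its difference at at least 1.51-fold (measured difference -1.80, adjusted p = 7.3e-10). Elf5, the transcription factor of the milk-producing lineage, changed by -2.19, Prlr, the prolactin receptor, by -2.95, and Cdh1, the epithelial cadherin, by -1.90. The smallest called differences were those of Muc1, a luminal surface mucin (-1.11), and Aldh1a3, a retinaldehyde dehydrogenase (-0.85). Of 17 tested luminal genes, 16 fell and 0 rose, with a median of -2.69, and the arms did not overlap for 11. Without XY-Sry T replicate 1 the count was again 16, and the median was -2.70. Areg, the growth factor amphiregulin that relays estrogen in ducts, was the gene that did not pass (0.02, adjusted p = 0.99).

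The mean of the luminal genes on each array showed how the arrays varied. It lay between 8.06 and 9.41 in former ovaries and between 5.47 and 7.59 in former testes. Among the former testes, XY-Sry arrays ranged from 5.48 to 6.46. XXSry arrays ranged more widely, from 5.47 to 7.59, with replicates 3, 4 and 5 at 6.82, 7.29 and 7.59. XY-Sry T replicate 1, with its liver transcripts, stood at 6.10 within the range of its group. No former testis array reached the lowest former ovary array.

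**Figure D2:**
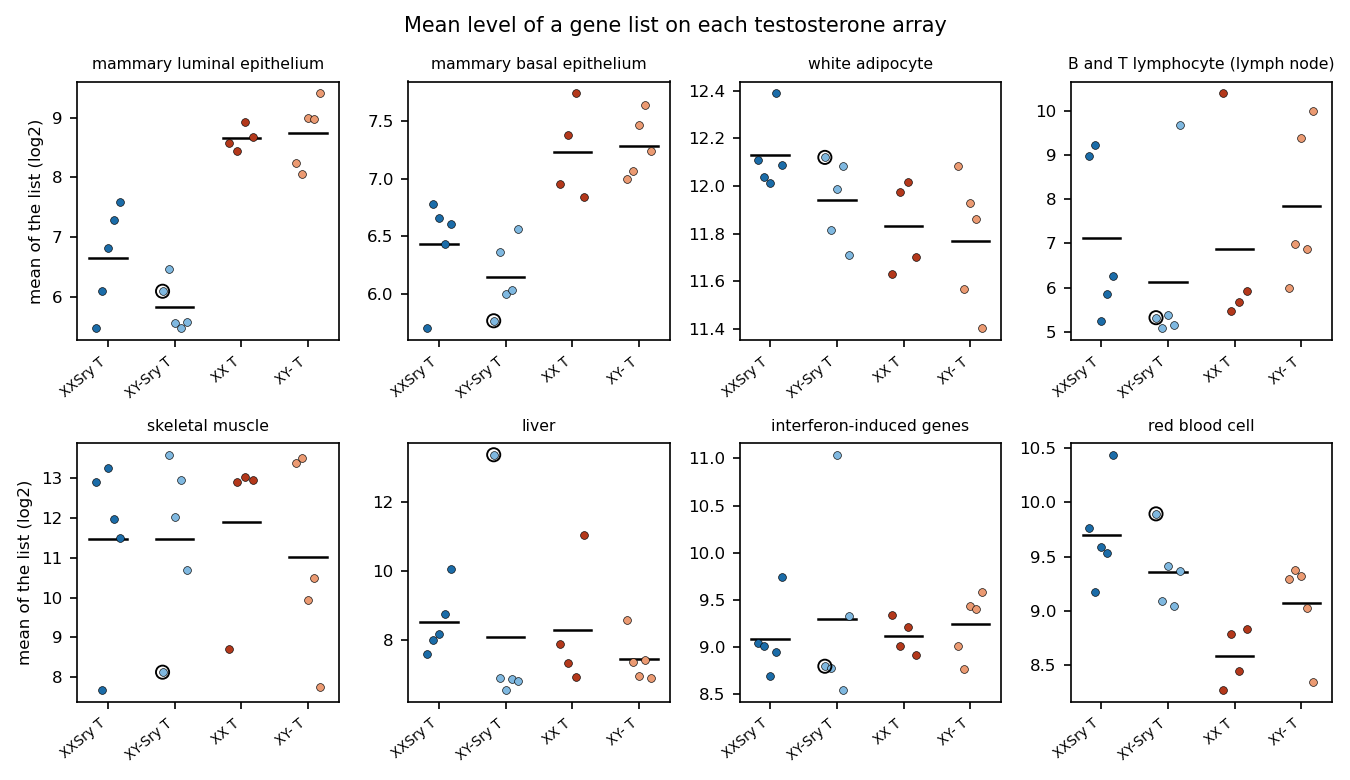
Mean level of 8 gene lists (log2 normalised intensity, y axis) on each of the 19 testosterone arrays, grouped by genotype, with a bar at the group mean and a ring around XY-Sry T replicate 1. The luminal list is below 7.6 on all 10 former testis arrays and above 8 on all 9 former ovary arrays, whereas the lymphocyte, muscle and liver lists spread widely inside both arms.

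In the basal layer 6 of 15 tested genes fell. Some of the 15 passed the filter mainly through arrays of other treatments. Perp was above background on 0 former testis and 0 former ovary arrays, Dsc3 on 0 and 1, and Krt15 on 0 and 2. Krt14, the basal keratin, ranged from 4.67 to 10.96 (median 8.35) in former testes and from 10.19 to 11.44 (median 11.01) in former ovaries. The arms overlapped, and Krt14 was 10.3-fold lower (-3.36 ± 0.60, adjusted p = 0.000102). Krt17 was 6.07-fold lower with arms that did not overlap (-2.60 ± 0.41, adjusted p = 1.07e-05). It was above background on 4 of 10 former testis arrays and on 9 of 9 former ovary arrays. Lamb3, a laminin chain of the epithelial basement membrane, was 2.58-fold lower (adjusted p = 5.66e-06). Cdh3, the placental cadherin of myoepithelial cells, was not above background on any former testis array and on 4 former ovary arrays (-0.74, adjusted p = 0.0441), and its call was lost without XY-Sry T replicate 1 (adjusted p = 0.084). No basal gene rose, the median was -0.60, and Krt5 (-1.76) and Col17a1 (-1.90) were the other two that fell. Trp63, the regulator of basal fate, was at -0.45 (adjusted p = 0.42).
Genes of smooth muscle, a contractile programme that myoepithelial cells share with vessel walls, fell in part. Acta2 was 1.99-fold lower (adjusted p = 0.000506), Myh11 2.01-fold lower (adjusted p = 0.0112) and Actg2 2.41-fold lower (adjusted p = 0.0137). They were 3 of 7 tested smooth muscle genes, with a median of -0.63.

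Junction genes, which seal and join epithelial cells, followed. Cldn4, a tight junction claudin, ranged from 4.67 to 8.28 (median 6.08) against 9.23 to 11.49 (median 10.25), without overlap, and was 15.1-fold lower (-3.92 ± 0.46, adjusted p = 1.38e-08). Cldn3 was 7.91-fold lower, and 4 of 10 former testis arrays detected it against 9 of 9. Its highest former testis value, 9.55, was that of XY-Sry T replicate 1 and lay inside the range of the former ovaries. The next, 7.87, lay below the lowest former ovary value, 8.22, and without that array the difference was -3.46. Esrp1, a splicing factor of epithelial cells, and Grhl2, a transcription factor that keeps junction genes on, were not above background on any former testis array, and were at least 1.56-fold and at least 1.59-fold lower. F11r, a junction adhesion molecule above background on all 19 arrays, had a small called difference (-0.46, adjusted p = 0.039). Cldn23 was called lower (adjusted p = 0.0185) but was above background on 0 former testis and 3 former ovary arrays, so no fold is given. Of 19 tested genes, 12 fell and 0 rose, with a median of -1.02. Without XY-Sry T replicate 1 the count was 13, with the addition of Esrp2, a splicing factor related to Esrp1 (-0.58, adjusted p = 0.02, against -0.28 and 0.734 with it). Pkp2, a plakophilin that heart and stroma also make, was at 0.68 and did not pass.

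Several genes outside these epithelial lists belonged to the largest differences. Ido1, the interferon-inducible enzyme that degrades tryptophan, ranged from 4.83 to 8.42 (median 5.75) in former testes and from 9.69 to 11.91 (median 10.89) in former ovaries. The arms did not overlap, and at 24.8-fold (-4.63 ± 0.47, adjusted p = 4.5e-10) this was the largest difference. By slide it was -4.05, -3.66, -4.90, -5.06 and -5.27. No other of the 19 tested interferon-induced genes passed the test, and the median of the list was 0.15. Without XY-Sry T replicate 1, Irf7, a transcription factor of the interferon response, passed as higher (1.06, adjusted p = 0.043), against 0.89 with it (adjusted p = 0.133). Tmprss2, a serine protease of secretory epithelia, ranged from 4.76 to 9.61 (median 6.44) against 10.05 to 12.02 (median 11.24), without overlap, and was 20.5-fold lower (-4.35 ± 0.47, adjusted p = 2.09e-09). Fxyd3, a regulator of the sodium pump, was 11.5-fold lower without overlap. Upk2, a uroplakin, was 4.99-fold lower (adjusted p = 2.02e-09), and was above background on 1 of 10 former testis arrays and on 9 of 9 former ovary arrays.

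Growth factors and signals between epithelium and stroma were mixed. Ptn, the heparin-binding growth factor pleiotrophin, ranged from 5.54 to 10.82 (median 8.47) in former testes and from 11.32 to 13.03 (median 12.46) in former ovaries, without overlap. Ptn was 13.2-fold lower (-3.72 ± 0.32, adjusted p = 7.35e-12). Fgfr2, the receptor for stromal FGF signals, was 5.99-fold lower without overlap (-2.58 ± 0.24, adjusted p = 5.62e-11). Wnt7b, an epithelial Wnt ligand, was not above background on any former testis array and was detected on 9 of 9 former ovary arrays. It was at least 2.26-fold lower, with a measured difference of -2.32 ± 0.20 (adjusted p = 7.86e-12). Wnt4, which acts downstream of progesterone, changed by -1.88 (adjusted p = 0.00032). Msx2, a homeobox gene of the bud, had a called difference of -0.61 but was not above background on any of the 19 arrays. Igf1, the growth factor of stroma and liver, was 1.44-fold higher (adjusted p = 0.0347). Its call rested on 1 of 2 probes and was lost without XY-Sry T replicate 1 (adjusted p = 0.099). Of the 16 tested genes of this list 4 fell and 1 rose, with a median of -0.25.

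**Figure D3:**
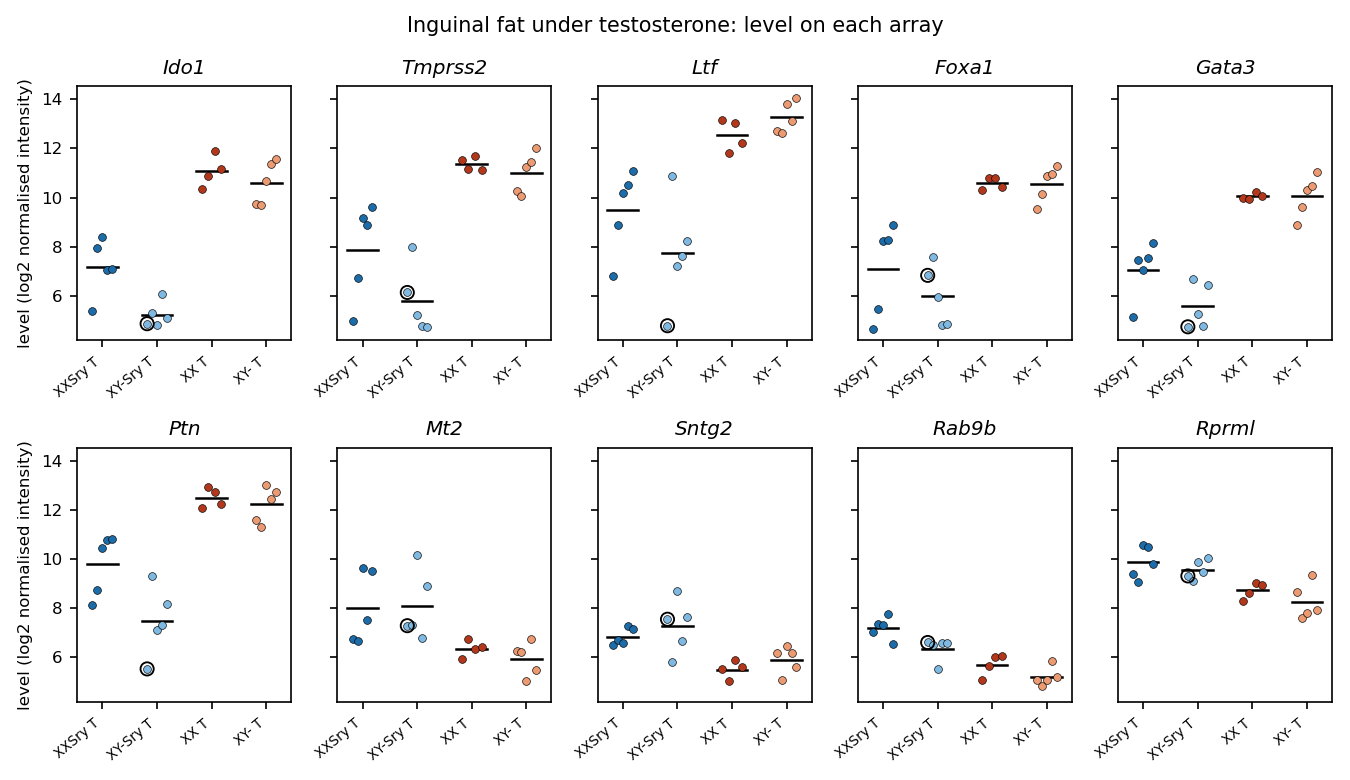
Level (log2 normalised intensity, y axis) of 6 lower and 4 higher genes on each testosterone array by genotype (x axis), with a bar at the group mean and a ring around XY-Sry T replicate 1. The former testis arrays of Ido1, Tmprss2, Ltf, Foxa1, Gata3 and Ptn lie below every former ovary array, whereas the arms of Mt2, Sntg2, Rab9b and Rprml overlap.

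Genes higher in former testes stayed under a 4-fold difference. Mt2, a metallothionein that binds zinc and copper, ranged from 6.67 to 10.18 (median 7.42) in former testes and from 5.04 to 6.76 (median 6.28) in former ovaries. It was high on XY-Sry T replicate 3 (10.18) and on XXSry T replicates 3 and 5 (9.63 and 9.53), and the lowest former testis array lay inside the other arm. Mt2 was 3.72-fold higher (1.90 ± 0.37, adjusted p = 0.00044), but by slide the difference ran from 0.51 to 4.86. Clec4d, a lectin of myeloid cells, ranged from 4.98 to 10.52 (median 6.42) against 4.56 to 6.29 (median 5.02), with its 2 highest values on XY-Sry T replicate 3 and XXSry T replicate 5 (10.52 and 9.49). It was 3.11-fold higher (adjusted p = 0.0372), and its call was lost in 16 of 29 alternatives, among them leaving out XY-Sry T replicate 3. Oasl1, an interferon-induced gene, was 2.31-fold higher by 1 of 3 probes (adjusted p = 0.0399), a call that was lost in the same number of alternatives. The same pair of arrays had the 2 highest means of the interferon-induced list, 11.04 and 9.74, against 8.55 to 9.59 on the other 17, and the part of this in the results was not tested. Timp1, an inhibitor of matrix proteases, was at 13.00 and 11.72 on these arrays and did not pass the test (1.26, adjusted p = 0.169).
Sntg2, Rab9b and Rprml kept their calls in each of 29 alternatives. Sntg2, gamma-2 syntrophin, ranged from 5.83 to 8.71 (median 6.92) against 5.03 to 6.46 (median 5.63). It was 2.56-fold higher (1.36 ± 0.24, adjusted p = 0.000113) with differences by slide from 0.96 to 1.77. Rab9b, a small GTPase of endosomal traffic, ranged from 5.53 to 7.79 (median 6.60) against 4.84 to 6.05 (median 5.22), and was 2.52-fold higher (1.33 ± 0.24, adjusted p = 0.000142). Rprml, a relative of the cell cycle regulator reprimo, ranged from 9.08 to 10.57 (median 9.64) against 7.61 to 9.34 (median 8.64), and was 2.32-fold higher (adjusted p = 0.00329). The arms of these 3 genes overlapped at their edges. Bcat1, an enzyme of branched-chain amino acid breakdown, Srxn1, which repairs oxidised peroxiredoxins, and Timp4, an inhibitor of matrix proteases, were 2.73-fold, 2.27-fold and 2.24-fold higher. Bcat1 ranged from 5.89 to 9.57 against 5.66 to 7.09, so its arms overlapped. Its highest values were on XXSry T replicate 5 and XY-Sry T replicate 3 (9.57 and 9.31), the pair named above for Clec4d. Por, the electron donor of cytochromes P450, was 2.25-fold higher by 1 of 3 probes, and the transcript listed as LOC195357 was 2.31-fold higher. Slc6a13, a transporter of GABA and taurine, was 2.28-fold higher (adjusted p = 0.0335), and its call was lost without XY-Sry T replicate 1 (adjusted p = 0.1).

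No gene of the lists for fat cells was called, and the cells of origin of the called genes were not tested. Over all tested probes 3.42% were called. In lists this short 0 calls is near that share and is not a result about fat cells. Of 16 white adipocyte genes 0 passed, with a median of 0.21; Lep, the hormone leptin, was at 0.50 ± 0.23 (adjusted p = 0.357) and Lipe, hormone-sensitive lipase, at 0.39 (adjusted p = 0.331). Of 13 genes of fatty acid synthesis 0 passed (median 0.07), with Scd2 at 0.57 and Insig1 at 0.44. Of 8 brown and beige genes 0 passed (median -0.15). Ucp1, the uncoupling protein, spread from 4.71 to 6.89 in former testes and from 4.58 to 12.40 in former ovaries (-1.90, adjusted p = 0.294). Of 19 steroid receptors and steroid enzymes 0 passed (median 0.11). Esr1, the estrogen receptor alpha, was at -0.16 (adjusted p = 0.89), and Fkbp5, a target of steroid receptors, at 0.76 (adjusted p = 0.146).

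**Figure D4:**
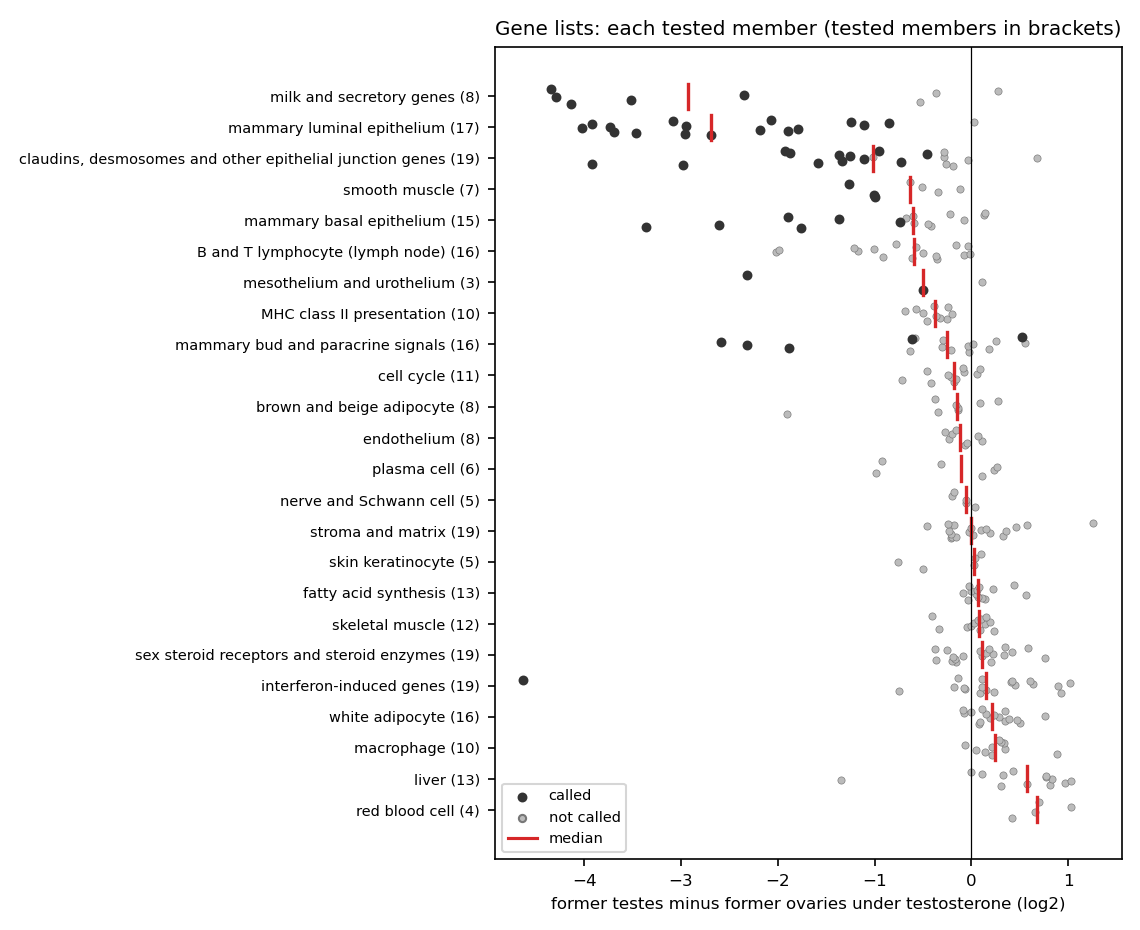
Difference between former testes and former ovaries under testosterone (log2, x axis) for each tested member of 24 gene lists (y axis), with called members dark and the list median in red. Called members lie in the milk, luminal, basal, junction, smooth muscle, urothelial and bud lists and at Ido1, and no member of the adipocyte, stromal, lymphocyte, muscle or liver lists is called.

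Lists for other tissues were read beside these results. Here too 0 calls in a short list is near the 3.42% called over all tested probes. Of 16 lymphocyte genes 0 were called (median -0.59), although Cd3d and Cd3g, chains of the T cell receptor complex, were at -2.01 and -1.99 with adjusted p of 0.444 and 0.43. The lymphocyte median was 0.00 in the XX pair and -1.80 in the XY pair. None of 10 MHC class II genes passed (median -0.38; H2-Aa -0.46 and H2-Eb1 -0.32), nor of 6 plasma cell genes (median -0.10; Xbp1 0.23, Tnfrsf17 -0.32), nor of 10 macrophage genes (median 0.25; Cd68 0.88, C1qb 0.30). None passed of 12 skeletal muscle genes (median 0.08; Mb -0.41, Myh1 -0.33), of 8 endothelial genes (median -0.12; Emcn -0.27, Esam -0.16), of 5 nerve genes (median -0.06; Prx -0.20, Ncam1 -0.18) or of 5 keratinocyte genes of skin (median 0.03; Krt10 -0.50, Lor -0.76). The 19 stromal genes (median 0.00; Col4a1 0.33), the 11 cell cycle genes (median -0.18; Cdk1 -0.72, Mcm6 -0.46) and the 4 red blood cell genes (median 0.68; Alas2 1.03, Slc4a1 0.69) also gave 0 calls. The red blood cell median was 1.16 in the XX pair and 0.29 in the XY pair. The mean of these genes was 9.18 to 10.44 on XXSry and 8.27 to 8.84 on XX arrays. It was 9.05 to 9.89 on XY-Sry and 8.35 to 9.38 on XY- arrays. Timp1, of the stromal list, was called without XY-Sry T replicate 1 (1.57, adjusted p = 0.033). Of 13 liver genes 0 passed; their median was 0.57, and -0.12 without XY-Sry T replicate 1. Fgg, the gamma chain of fibrinogen, then passed as lower (adjusted p = 0.035), against -1.35 with it (adjusted p = 0.416), and F2, prothrombin, was at 0.77. With the liver, muscle and lymphocyte means as covariates, 521 probes were lower and 193 higher. Cd3d and Cd3g, themselves part of the lymphocyte mean, were then called lower (-1.11, adjusted p = 7.93e-09, and -1.15, adjusted p = 1.56e-07).

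The next comparison asked whether the gonad-type difference was alike on XX and XY chromosomes. In the XX pair 164 probes were called (1.12%), 148 (1.01%) lower and 16 (0.109%) higher. In the XY pair 286 were called (1.95%), 269 (1.84%) lower and 17 (0.116%) higher, and 139 were called in both pairs. Among the 381 lower probes the median was -1.03 in the XX pair and -1.28 in the XY pair, and 291 had the larger drop in the XY pair. Without XY-Sry T replicate 1 the XX pair gave 178 calls and the XY pair 263. The test of the difference between the pairs called 0 of 14636 probes with or without that array (limma, 199 at an unadjusted p under 0.05 with it). Ptn, for example, was at -2.70 in the XX pair and -4.74 in the XY pair, and Csn3 at -2.48 and -5.79. The 2 probes with the smallest p for this difference were Olfr1443, an olfactory receptor (-0.87 in the XX pair and 0.64 in the XY pair, unadjusted p = 0.000776), and Alox5, the 5-lipoxygenase that starts leukotriene synthesis (0.60 and -0.53, unadjusted p = 0.00136). Each was detected on at most 4 of 19 arrays.

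The last comparisons set the gonad-type difference under testosterone against the same difference under a blank capsule and under estradiol, each with its own arrays. Most of the lower genes had the same sign without hormone. Under blank 263 probes were called (1.8%), 247 (1.69%) lower and 16 (0.109%) higher, and 226 of them were called in the same direction under testosterone, which is 45.1% of the testosterone calls and 85.9% of the blank calls. Of those 226, 223 were lower and 3 higher. The 381 lower probes had a median of -0.93 under blank and 377 kept their sign. The 120 higher probes had a median of 0.03 under blank and 73 kept their sign. Mt2 was at -0.21 under blank and 1.90 under testosterone, Bcat1 at -0.29 and 1.45, Srxn1 at -0.26 and 1.18, and Slc6a13 at -0.63 and 1.19. The tests of these 4 differences did not pass (limma adjusted p = 0.49 for each). Rprml stayed higher under blank (1.10, adjusted p = 0.034).
The test of the difference between treatments called 2 probes (0.0137%, with 623 at an unadjusted p under 0.05), and 1 without XY-Sry T replicate 1. Myl12a, a regulatory light chain of myosin, ranged from 7.28 to 8.57 (median 8.03) in former testes and from 7.37 to 7.99 (median 7.52) in former ovaries under testosterone, and was 1.39-fold higher (adjusted p = 0.0134). Under blank it ranged from 7.13 to 7.78 in former testes and from 7.57 to 8.34 in former ovaries, a difference of -0.51 (adjusted p = 0.019). The change between the treatments was 0.99 (adjusted p = 0.0222), and the call was lost under median centring and without any 1 of XY-Sry T replicate 3, XXSry T replicate 5, XY- T replicate 5 and XX T replicate 4. Upk3a, a uroplakin of the bladder lining, was at -0.50 under testosterone and -1.60 under blank, a change of 1.10 (adjusted p = 0.0441). It was above background on 0 of 19 testosterone arrays and on 5 former ovary arrays under blank, and its call was lost in 20 of 27 alternatives. Leaving out XY-Sry T replicate 1 was among these.

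Under estradiol 644 probes were called (4.4%), 443 (3.03%) lower and 201 (1.37%) higher, and 267 were called in the same direction under testosterone, 53.3% of the testosterone calls and 41.5% of the estradiol calls. No probe called in both went in opposite directions. The 381 lower probes had a median of -0.98 under estradiol and 357 kept their sign, and the 120 higher probes had a median of 0.29 and 108 kept their sign. The test of the difference between testosterone and estradiol called 119 probes (0.813%), in 79 (0.54%) of which the testosterone difference was the higher and in 40 (0.273%) the lower. The filter on dim probes counted arrays of all treatments, so probes at background on every testosterone array could enter this test. With the filter over the testosterone arrays, 59 of 12958 tested probes were called. Without XY-Sry T replicate 1 the test called 116 probes. Of the 119, 70 were lower in former testes under estradiol and not called under testosterone, and 25 were the reverse.
Ptn stood on the second side. Its levels in former testes were 9.71 to 11.08 under estradiol and in former ovaries 9.12 to 10.81, so that the arms overlapped, with a difference of 0.71 (adjusted p = 0.29). Under blank the arms were apart, at 7.14 to 9.05 and 11.40 to 12.74 (-4.08, adjusted p = 4.9e-12). The change between testosterone and estradiol was -4.43 (adjusted p = 2.93e-09). Fgfr2 was at -2.58 under testosterone, -1.98 under blank and -0.68 under estradiol (change between testosterone and estradiol -1.90, adjusted p = 0.00036).
On the other side was Phactr1, whose leading probe was above background in former ovaries under estradiol and in neither arm under testosterone. Phactr1, a regulator of actin and of protein phosphatase 1, was not above background on any testosterone array by the probe that led this test. Under estradiol it was detected on 10 of 10 former ovary arrays, at 6.06 to 7.08, and on 0 of 9 former testis arrays, at 4.59 to 5.23 (change 1.82, adjusted p = 3.49e-12). A brighter probe of Phactr1 gave 0.54 (adjusted p = 0.86). Hsd11b1, which regenerates active glucocorticoid, was at 0.41 under testosterone and -1.15 under estradiol (change 1.57, adjusted p = 2.8e-05). Among the basal genes, 12 of 15 were lower under estradiol and 6 under testosterone, and 4 had a called change between the treatments. Because Perp, Dsc3 and Krt15 were at or near background under testosterone, the counts 12 and 6 are not a like comparison.

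**Figure D5:**
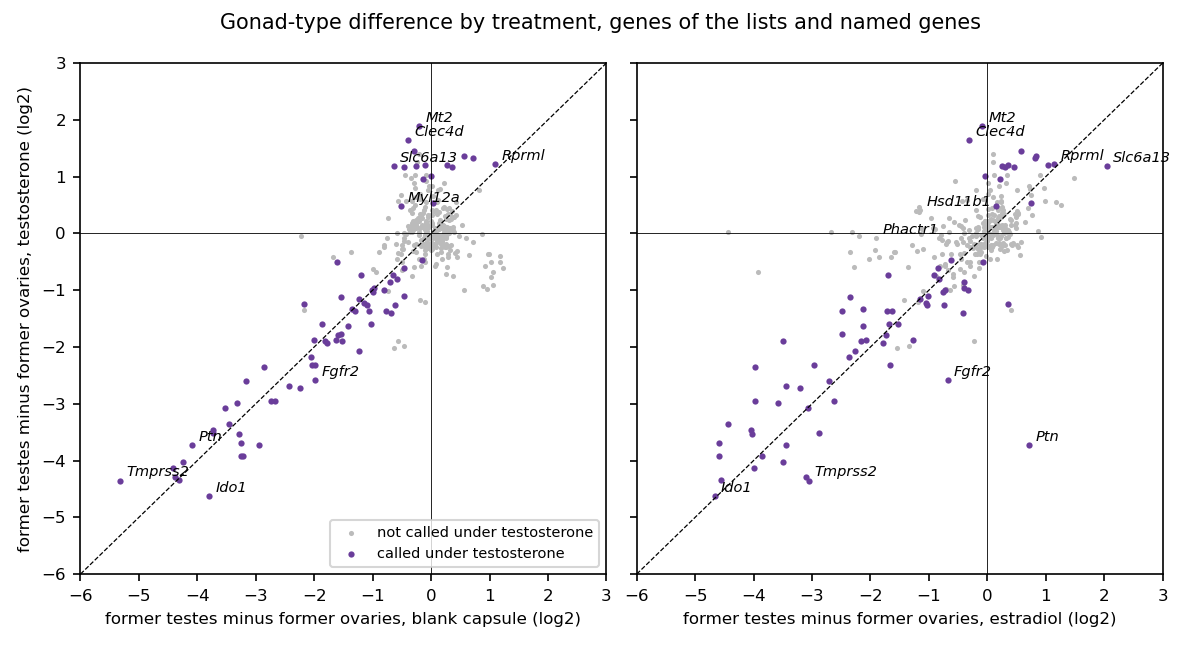
Gonad-type difference under testosterone (log2, y axis) against the same difference under the blank capsule (left, x axis) and under estradiol (right, x axis) for genes of the lists and named genes, with genes called under testosterone in purple and a dashed line of equality. Ptn lies near the line against blank (-3.72 and -4.08) and far from it against estradiol (0.71), and Mt2 and Clec4d lie near 0 on both x axes.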

How the data were processed

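Illumina BeadChips measured RNA of inguinal fat on 55 arrays in 12 groups of genotype and treatment, placed by their labels. Per the file headers, the deposited tables give for every probe a linear mean bead intensity and a detection p-value. The program lumi is named per the submitters' processing notes, without a role or version, and no scanner setting or array version is given in the sources used here. A further 55 columns of bead standard errors were not used. Replicate numbers were given in accession order and only name arrays, although most equal numbers share a slide; arrays of 1 slide were paired through slide as a block.

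In limma 3.58.1 (R 4.3.3), normexp background correction used the detection p-values, an offset of 16 was applied, and quantile normalisation preceded log2. Probes with a detection p under 0.01 on 3 or more arrays were tested, which kept 14636 of 25697 probes with 10741 symbols, of which 14186 probes (96.9%) matched a RefSeq GRCm38.p6 symbol or synonym. One model of 12 group means was fitted with lmFit and eBayes, and all groups shared the spread. The gonad contrast weights the XX and XY pair equally. Calls need a Benjamini-Hochberg adjusted p under 0.05 over all tested probes, within each of 8 contrasts. A probe detected on no array of an arm has a fold given as a bound, against the lowest signal among detected probes. The number of arrays limits the precision; the median raw signal ran from 130 to 230 and 40.3% to 46.7% of probes were detected on the testosterone arrays.

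The members and gene lists were chosen with earlier results of these data known. Named genes were the 12 largest called differences in each direction with 1 sign in both pairs, the 2 smallest p of each interaction, in each list the called members with the largest and smallest differences (or the 2 smallest p), genes named in an earlier account, and genotype check genes. Other members are added as examples of their lists, and 2 genes that the rule or a list holds are not reported here. Alternatives were slide as a block, median centring, no background correction, other filters, testosterone arrays alone, array weights, tissue covariates and leaving out arrays. The array XX E replicate 1 has label fields that disagree on treatment and was kept as estradiol.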

Additional observations from a re-analysis of the deposited data

Results flagged for a closer look

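Myl12a on XY- T replicate 3 stood at 7.99, above the next former ovary array at 7.68 by more than a test for a single outlying value allows at the 95% level. Such a test marks about 1 in 20 groups by chance. The gonad-type difference of Myl12a changed by 0.987 between blank and testosterone (limma adjusted p = 0.0222), and that of Upk3a by 1.10 (adjusted p = 0.0441), with Upk3a above background on no testosterone array. Between estradiol and testosterone the gonad-type difference of Ptn changed by -4.43 (adjusted p = 2.93e-09) and that of Phactr1 by 1.82 (adjusted p = 3.49e-12). The call of Ptn was kept in all 28 alternatives run for it, and that of Phactr1 in all 27. The filter over the testosterone arrays left the Phactr1 probe out, because it was above background on none of them.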

How the results depend on the processing

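No named gene that was called changed sign under any alternative that was run. Higher calls (120) moved most: 190 with slide as a block, 193 with tissue covariates, 40 without the 3 arrays with most liver transcripts (an alternative chosen after seeing the data), 34 in a fit of the testosterone arrays alone and 26 under median centring. Lower calls (381) ranged from 281 to 521. The fit of the testosterone arrays alone has fewer samples and gave 315 calls, 50 in the XX pair and 189 in the XY pair. Calls in the XX pair were 92 under median centring, 257 with array weights and 262 with covariates. The change between blank and testosterone gave 0 calls under median centring and 1 with slide as a block, without background correction, without the filter, with the filter over testosterone arrays, with covariates, without the array of disagreeing labels and without the 3 liver arrays. The change between estradiol and testosterone gave 59 calls with the filter over testosterone arrays, against 119 in the main fit. That filter tests 12958 probes and leaves out those detected on fewer than 4 testosterone arrays. Leaving out 1 array gave 407 (without XY-Sry T replicate 3) to 559 calls, 64 (the same array) to 154 higher, 333 to 426 lower, 93 (without XX T replicate 3) to 179 in the XX pair, 224 to 324 in the XY pair, 0 to 0 by sex chromosome, 0 to 2 between blank and testosterone and 106 to 124 between estradiol and testosterone. Calls were lost in 16 of 29 alternatives for Clec4d, Oasl1 and Cdh3, in 14 for F11r and Igf1 and in 12 for Slc6a13. They were lost in 16 of 28 for Upk3a and in 5 of 28 for Cldn23. Losses were fewer for Timp4 (3), Actg2 and Myl12a (2 each), and Bcat1, Srxn1, Por, Myh11 and Msx2 (1 each). Timp4, Actg2, Por and Myh11 lost theirs without the 3 arrays with most liver transcripts. Ido1, Tmprss2, Ltf, Foxa1, Gata3, Ptn, Mt2, Sntg2, Rab9b and Rprml kept theirs in all 29. The cause of these changes was not tested. The labels give no replicate numbers, and pairing was by slide as a block (637 calls, 447 of them lower). A probe detected on no array of an arm carries a bound or no fold. Folds of probes detected on few arrays of an arm rest in part on values near background.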
